A study of Mus musculus with 17 samples.

Results

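Immediate early genes are transcribed within minutes of a growth factor, cytokine, or stress signal, without new protein synthesis, and most of their messenger RNAs are short lived. In liver they are known from partial hepatectomy, endotoxin, and acute injury, and many of them encode transcription factors or brakes on mitogen-activated protein (MAP) kinases. The 9 genes described here are Fos, Jun, and Junb (subunits of the AP-1 transcription factor), Egr1 (a zinc finger transcription factor), Ier2 and Ier3 (immediate early response genes), Dusp1 (a phosphatase that switches off MAP kinases), Klf6 (a Krüppel-like zinc finger factor), and Myc (a transcription factor for growth genes). The rule that selects them uses gene symbols and no measured value, although the list was drawn up with earlier results of these data known, and all of the array probes with these symbols were taken. This gave 14 probes of the 41174 non-control probes on the array, and all 14 passed the filter on signal. Fos, Jun, Egr1, Ier3, and Dusp1 had 1 probe each, Junb, Ier2, and Klf6 had 2, and Myc had 3.

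Livers of 17 male mice were hybridized, 1 array per mouse, on a 2-color Agilent array with liver RNA in Cy5 and a common mouse reference RNA in Cy3. The 4 chow mice received chow and a maltose gavage, and the 4 1B mice received chow and a single ethanol gavage (binge) of 5 g/kg. The 4 HFD mice received a high-fat diet with 60% of calories as fat and the maltose gavage, and the 5 HFD+1B mice received the high-fat diet and the ethanol gavage. Diets lasted 3 months, and all livers were taken 9 hours after the gavage, so only this time point is described. The sample labels name C57BL/6N mice and the methods C57BL/6J mice. Whole liver was used, so fewer cells of a type and less RNA per cell cannot be told apart.

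Values are log2 ratios of liver over reference, where a step of 1 is a 2-fold change. They compare mice for 1 probe and do not rank genes by abundance. A difference was called when its adjusted p in limma (Benjamini-Hochberg, over all 34664 tested probes) was 0.05 or less. The interaction is the ethanol effect in HFD-fed mice minus the ethanol effect in chow-fed mice. The median Cy5 signal per array was 63 to 158 intensity units, lowest in HFD mice (63 to 98), and no member spot was saturated. The 7 hepatocyte markers were well above background in all 17 mice. In HFD+1B against chow 1 of them, Cyp2e1, was called lower, beside 7.42% of all genes. The mean level of the 7 markers relative to chow was -0.28 in HFD+1B mice (-0.60 to -0.04).

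The immediate early genes were mostly higher in HFD+1B mice. In HFD+1B against chow, 5 of 9 genes rose (Fos, Jun, Egr1, Ier3, and Klf6) and 0 fell, while 16.3% of all 19367 genes were called and 8.9% were called upward. In HFD+1B against HFD, 7 of 9 rose (all but Dusp1 and Myc), beside 19.4% of all genes called and 11% upward. Ethanol in chow-fed mice raised 1 of 9 (Egr1), beside 4.14% of all genes called and 2.09% upward. HFD alone raised 2 of 9 (Jun and Klf6), beside 11% called and 4.48% upward. In HFD+1B against 1B, 4 of 9 rose (Fos, Jun, Ier3, and Klf6), beside 11.4% called and 6.27% upward. With median centring Junb and Ier2 were called lower in HFD against chow (-0.63 and -0.54, adjusted p = 0.0338 and 0.0447), and with slide as a block Ier2 was (-0.53, adjusted p = 0.0456). The interaction was called for 1 of 9 (Klf6) and for 4.41% of all genes, 2.7% in the positive direction. Fos reached the filter on signal (4 arrays well above background) only through its HFD+1B mice, so it had to differ there. Without Fos the counts for HFD+1B were 4 of 8 against chow, 6 of 8 against HFD, and 3 of 8 against 1B. With only probes above background on all 17 arrays, which leaves 7 genes, 3 rose in HFD+1B against chow and 2 against 1B. The median log2 difference of the 9 genes was 0.59 in HFD+1B against chow and 0.85 against HFD, without Fos 0.59 and 0.88, and over all genes 0.00060 and 0.0092. The groups did not overlap, with HFD+1B higher, for 5 of 9 genes against chow and for 8 of 9 against HFD, and for 8.16% and 8.35% of all genes. Without Fos this held for 4 of 8 genes against chow and for 7 of 8 against HFD. By probe, 7 of 14 were called higher against chow and 9 of 14 against HFD, and 7.79% and 9.92% of all tested probes were. The Fos probe is among those called in both comparisons. These comparisons share groups, so they are not independent of each other.

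**Figure D1:**
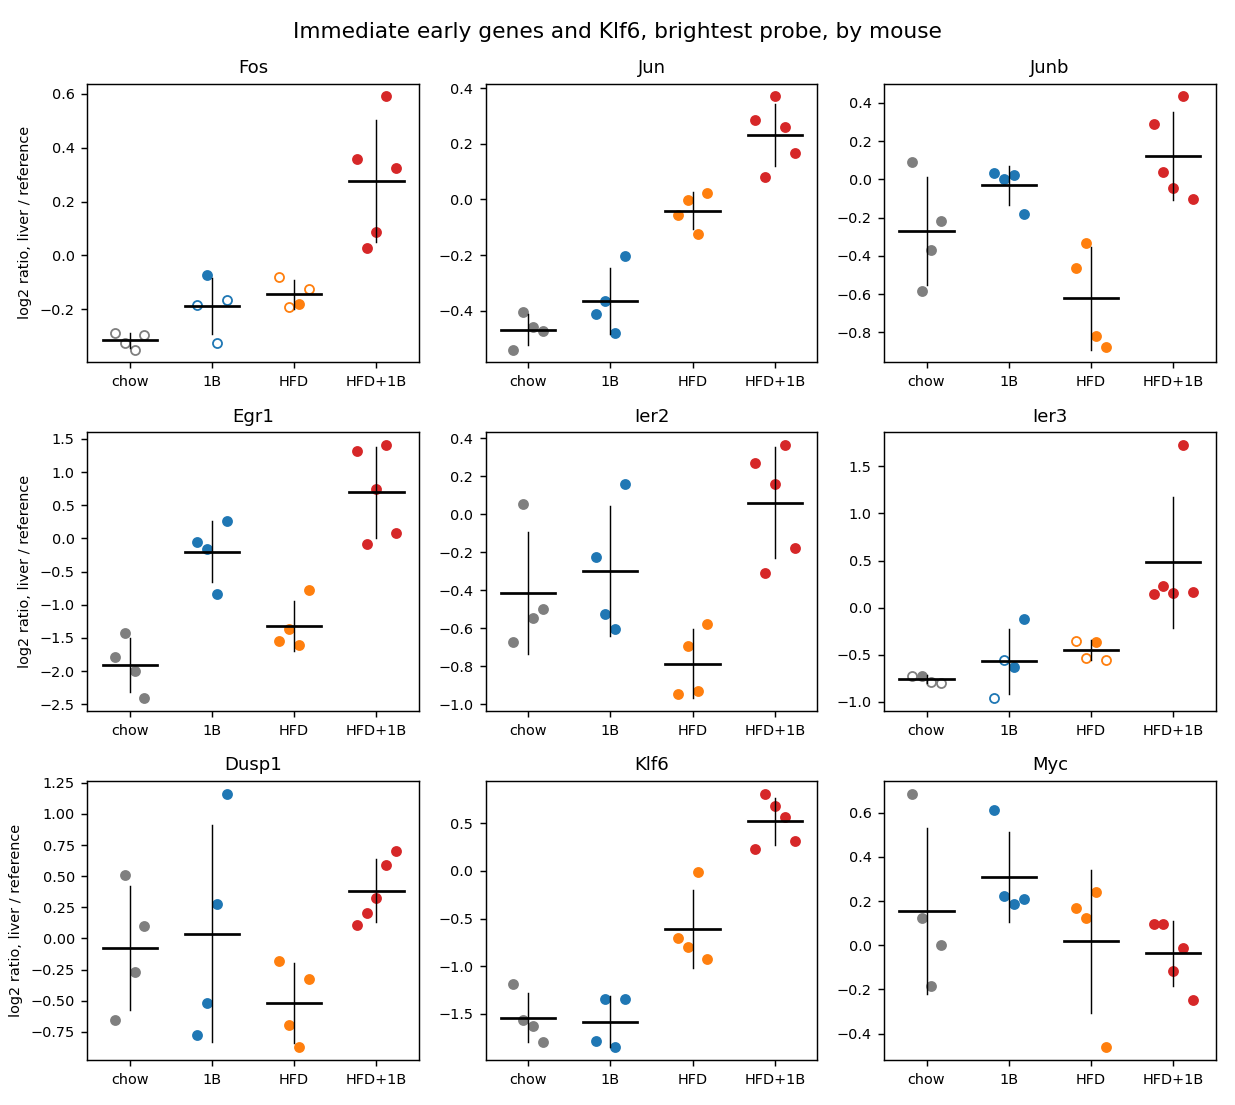
Log2 ratio of liver over reference (y axis) for the brightest probe of each of the 9 genes in each mouse, by group (x axis). Points are mice, open points are spots not well above background, the thick line is the mean, and the thin line is 1 SD on either side. Klf6 was -1.79 to -1.18 in chow mice and 0.23 to 0.81 in HFD+1B mice, and Fos was open in all 4 chow mice.

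**Figure D2:**
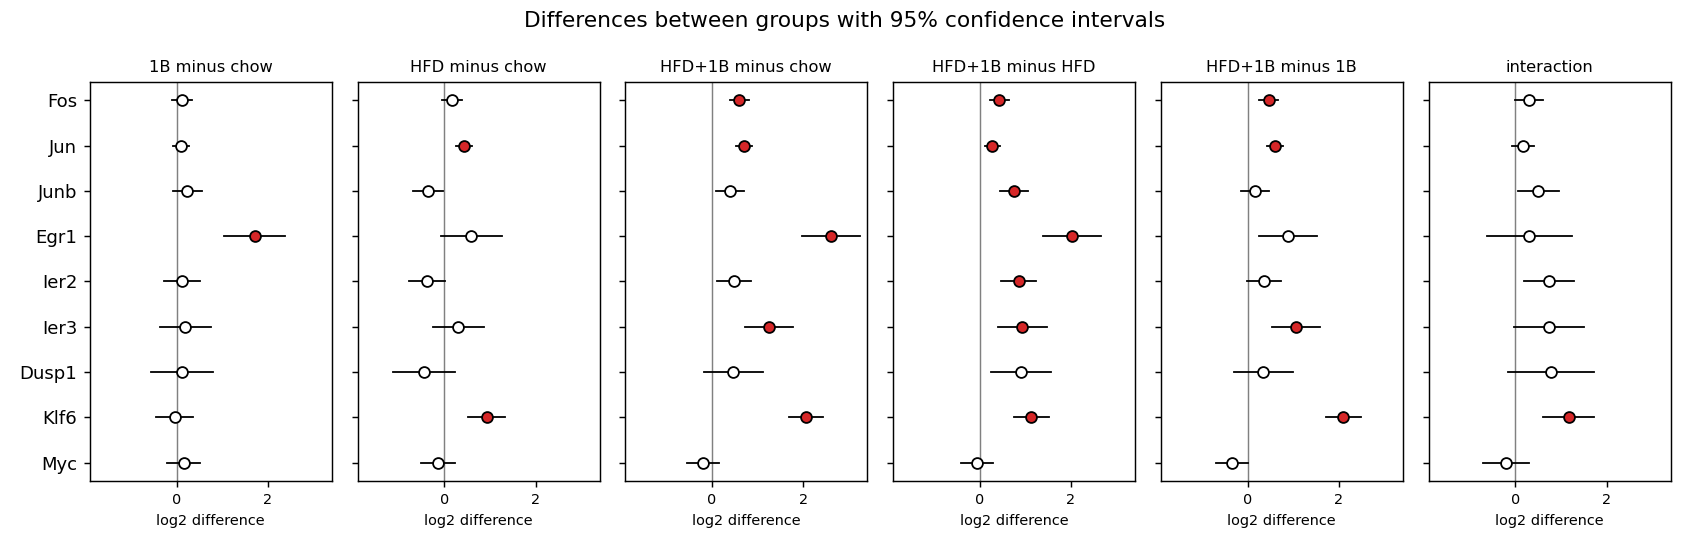
Log2 difference (x axis) of the 9 genes (y axis) in the 6 comparisons, with 95% confidence intervals as lines. Filled points passed an adjusted p of 0.05, and Egr1 is the only filled point in 1B minus chow and Klf6 in the interaction.

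Sequence before the gene start was available for 6 of the 9 genes (Fos, Jun, Junb, Ier3, Dusp1, and Klf6) from RefSeq on GRCm38.p6, a later build than the mm9 annotation of the array. The 250 bases before the start are printed for Fos and Klf6, which were called in HFD+1B against chow, and for Dusp1, which was not. Each is read 5′ to 3′ on the gene's own strand, and capitals mark TGACG on either strand (the core of the cyclic AMP response element TGACGTCA), the TATA box TATAAA, and the E-box CACGTG.
Fos, chr12:85473640-85473889, plus strand: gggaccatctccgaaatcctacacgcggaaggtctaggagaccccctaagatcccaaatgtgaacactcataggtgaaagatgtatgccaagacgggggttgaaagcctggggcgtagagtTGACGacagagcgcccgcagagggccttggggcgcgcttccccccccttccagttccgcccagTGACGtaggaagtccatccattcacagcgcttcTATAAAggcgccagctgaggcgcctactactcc
Klf6, chr13:5861239-5861488, plus strand: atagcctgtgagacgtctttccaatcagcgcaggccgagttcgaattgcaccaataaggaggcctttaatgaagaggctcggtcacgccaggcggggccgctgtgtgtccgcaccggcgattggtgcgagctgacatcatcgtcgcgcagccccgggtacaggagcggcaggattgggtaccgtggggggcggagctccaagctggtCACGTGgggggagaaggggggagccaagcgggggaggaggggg
Dusp1, chr17:26508473-26508722, minus strand: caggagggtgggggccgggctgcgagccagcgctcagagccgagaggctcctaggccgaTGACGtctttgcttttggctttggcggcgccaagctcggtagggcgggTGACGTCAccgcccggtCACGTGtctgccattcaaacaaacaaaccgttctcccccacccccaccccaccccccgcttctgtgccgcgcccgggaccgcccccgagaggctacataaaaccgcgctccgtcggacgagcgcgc
In the window from 250 bases before to 50 bases after the start, TGACG occurred in Fos, Junb, and Dusp1 and in 20.8% of all 32851 promoters of that length. The whole element TGACGTCA, which contains 2 of the Dusp1 cores on opposite strands, occurred in Dusp1 alone among the 6 and in 1.79% of all promoters. TATAAA occurred in Fos and Junb and in 13.6%, CACGTG in Klf6 and Dusp1 and in 7.15%, and the GC box GGGCGG in all but Junb and in 35.7%. The TATAAA match lay 33 to 28 bases before the start in Fos. In Junb it lay at bases 1 to 6 from the start onward, not before it. The AP-1 site TGANTCA (7.81% of all), the serum response element (1.63%), and the EGR site GCGGGGGCG (2.91%) had no match in these 6 windows. A match is only a match of letters, and elements farther away were not searched.

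**Figure D3:**
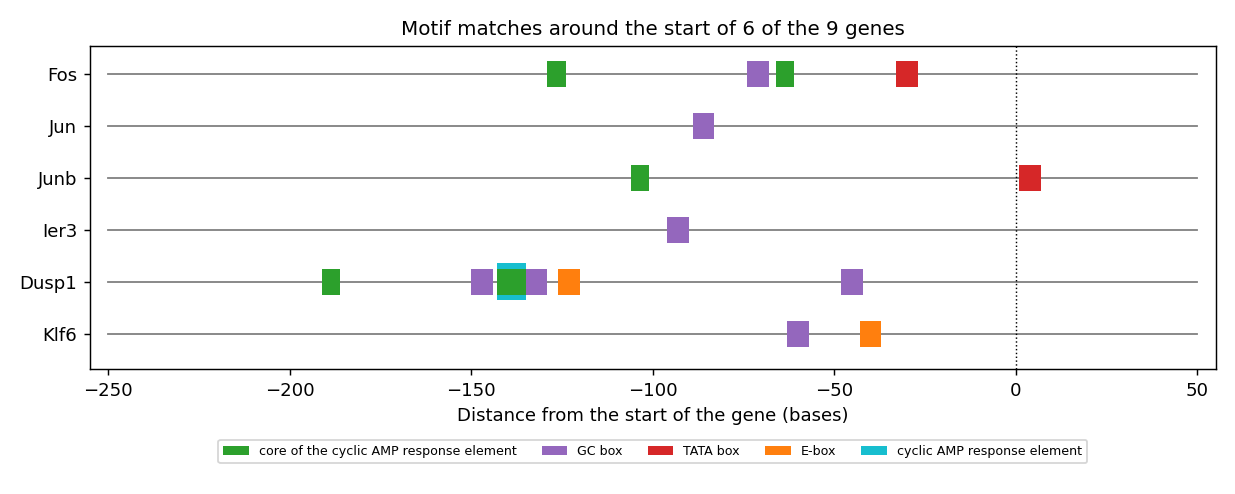
Motif matches on either strand in the window from 250 bases before to 50 bases after the start (x axis, distance in bases) of 6 genes (y axis). Dusp1 has the most matches, with the whole cyclic AMP response element 143 to 136 bases before the start, and Jun and Ier3 have 1 GC box each.

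Klf6, a factor best known for its induction in activated stellate cells and after liver injury, was low in both chow-fed groups, intermediate in HFD mice, and highest in HFD+1B mice. The log2 ratios of its brightest probe were -1.18, -1.56, -1.62, and -1.79 in chow mice and -1.78, -1.35, -1.85, and -1.35 in 1B mice. They were -0.71, -0.80, -0.02, and -0.93 in HFD mice and 0.23, 0.81, 0.68, 0.57, and 0.32 in HFD+1B mice. The chow and 1B mice overlapped, every HFD mouse was above both, and every HFD+1B mouse was above every HFD mouse. Klf6 rose in HFD against chow by 0.93 ± 0.19 (SE; adjusted p = 0.00548) and in HFD+1B against chow by 2.06 ± 0.18 (adjusted p = 1.22e-06), which is 4.17-fold. In HFD+1B it was 2.19-fold of HFD (1.13 ± 0.18; adjusted p = 5.08e-04), whereas in 1B against chow the difference was -0.04 with a 95% interval of -0.44 to 0.36.

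The ethanol effect on Klf6 differed between diets, with an interaction of 1.17 ± 0.26 (adjusted p = 0.0209). The second Klf6 probe, of another sequence, gave 1.00, 2.14, and 1.15 in HFD against chow, HFD+1B against chow, and HFD+1B against HFD, and an interaction of 0.92 ± 0.25 (adjusted p = 0.0437). With Cy5 signals alone, without the reference channel, the interaction was 0.98 and no longer called (adjusted p = 0.374), and HFD against chow was 0.89 (adjusted p = 0.153). Within the 4 slides that held both groups, HFD+1B exceeded chow by 1.41 to 2.47. HFD mouse 3 had the highest Klf6 of its group, and without it HFD against chow was 0.73 (adjusted p = 0.0177) and the interaction 1.37. Of 8 stellate cell markers, 2 were called higher in HFD against chow, where 4.48% of all genes were. In HFD+1B against chow 4 were (Des, Lrat, Pdgfrb, and Rgs5), where 8.9% of all genes were. The mean level of the 8 markers relative to chow was 0.34 to 0.55 in HFD mice and 0.08 to 0.89 in HFD+1B mice. Markers of Kupffer cells and macrophages (7 genes) were at 0.28 to 0.53 and 0.25 to 0.67, with 2 and 1 called higher. In HFD+1B against HFD, where Klf6 rose again, 2 of 8 stellate markers were called higher, beside 11% of all genes. The stellate group means were 0.51 and 0.45, and the median difference of the 8 markers was 0.04. The interaction was called for 0 of 8 stellate markers (median -0.07). The part of cell composition in the Klf6 result was not tested.

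Egr1 was the gene that ethanol raised in chow-fed mice too. Its log2 ratios were -1.79, -1.43, -2.004, and -2.41 in chow mice and -0.06, -0.16, -0.84, and 0.26 in 1B mice. They were -1.55, -1.37, -1.60, and -0.77 in HFD mice and 1.32, -0.08, 0.75, 1.41, and 0.08 in HFD+1B mice. Both ethanol groups lay above chow with no overlap, and the HFD mice overlapped chow. Egr1 rose by 1.71 ± 0.32 (SE; 3.27-fold) in 1B against chow (adjusted p = 0.00435) and by 2.02 ± 0.30 (4.04-fold) in HFD+1B against HFD (adjusted p = 3.23e-04). In HFD+1B it was 6.08-fold of chow (2.60 ± 0.30; adjusted p = 1.48e-05). The interaction was 0.31 with a 95% interval of -0.62 to 1.23 (adjusted p = 0.758), and HFD+1B against 1B was 0.89 (adjusted p = 0.0718). The latter comparison passed with slide as a block (0.96; adjusted p = 0.00952), with median centring (0.99; adjusted p = 0.0264), and without HFD+1B mouse 2 or 5 (1.09 and 1.05; adjusted p = 0.0258 and 0.0389). On the 3 slides with both groups, 1B exceeded chow by 1.16 to 1.73.

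Fos and Jun, which pair as the classic AP-1 dimer, gave low signals. The log2 ratios of Fos were -0.29, -0.33, -0.35, and -0.30 in chow, -0.19, -0.07, -0.33, and -0.17 in 1B, and -0.08, -0.19, -0.18, and -0.12 in HFD mice. In HFD+1B mice they were 0.36, 0.03, 0.09, 0.59, and 0.32, above every other mouse. Fos was well above background in all 5 HFD+1B mice but in 0 of 4 chow, 1 of 4 1B, and 1 of 4 HFD mice. It was in the tested set only through the HFD+1B mice, so its calls are given as a description. Fos was at least 1.47-fold higher in HFD+1B than in chow mice, a bound from Cy5 signals without a dye swap. The fitted log2 difference, with chow at background, was 0.59 ± 0.10 (adjusted p = 4.80e-04). Against HFD and 1B, each measured above background in 1 of 4 mice, the fitted differences were 0.42 ± 0.10 and 0.47 ± 0.10 (adjusted p = 0.00722 and 0.00584), and the first did not pass with median centring in place of loess (0.29; adjusted p = 0.104).

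Jun was well above background in all 17 mice. It was -0.54, -0.40, -0.46, and -0.47 in chow, -0.41, -0.37, -0.48, and -0.20 in 1B, and -0.06, -0.00027, -0.13, and 0.02 in HFD mice. In HFD+1B mice it was 0.29, 0.08, 0.37, 0.26, and 0.17. The groups formed 3 steps without overlap: chow with 1B, then HFD, then HFD+1B. Jun rose by 0.43 ± 0.08 in HFD against chow (adjusted p = 0.00436), a call lost with Cy5 alone (0.33; adjusted p = 0.0941), and by 0.70 ± 0.08 in HFD+1B against chow (adjusted p = 1.25e-05). The step from HFD to HFD+1B, 0.27 ± 0.08, had the highest adjusted p of the calls on brightest probes (0.0251). It was lost on leaving out HFD mouse 1 or 3 or HFD+1B mouse 1, 3, or 4 (0.24 to 0.27), with median centring (adjusted p = 0.0762), and with Cy5 alone (adjusted p = 0.154). The interaction of Jun was 0.17 (95% interval -0.08 to 0.42).

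Fold changes of the dim members depended on the treatment of background. The log2 differences above were computed after an offset of 50 units, which compresses ratios of dim spots. The group means of Cy5 signal over background were 9.88 units for Fos and 18.4 for Jun in chow mice, and 41.9 and 61.5 in HFD+1B mice. In the authors' processed ratios HFD+1B against chow came to 3.68 for Fos, 2.63 for Jun, and 3.96 for Ier3 on the log2 scale. Without any background subtraction they were 0.81, 0.92, and 1.60. For the brighter Klf6 and Egr1 the processed ratios gave 2.68 and 3.35.

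Ier3, an early gene that modulates apoptosis, was at -0.72, -0.73, -0.79, and -0.81 in chow, -0.96, -0.56, -0.63, and -0.13 in 1B, and -0.35, -0.53, -0.36, and -0.56 in HFD mice. In HFD+1B mice it was 0.14, 0.23, 0.15, 1.73, and 0.16, above all other mice. It was well above background in 1 of 4 chow, 2 of 4 1B, 1 of 4 HFD, and all 5 HFD+1B mice. Ier3 rose by 1.24 ± 0.25 in HFD+1B against chow (adjusted p = 0.00219), by 0.94 ± 0.25 against HFD (adjusted p = 0.0155), and by 1.05 ± 0.25 against 1B (adjusted p = 0.0117). Mouse 4 of HFD+1B stood apart at 1.73, and without it the 3 differences were 0.93, 0.62, and 0.74, all still called.

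The 2 probes of Junb, an AP-1 subunit that opposes Jun at some promoters, disagreed. The dimmer one was at -1.45 to -1.19 in chow and -0.84 to -0.16 in 1B mice. In HFD mice it was -1.72, -1.55, -0.52, and -1.76, and in HFD+1B mice 1.02, -0.14, 0.87, 1.03, and -0.15. By this probe Junb rose by 1.87 ± 0.27 (3.65-fold) in HFD+1B against chow (adjusted p = 1.43e-04), by 1.91 ± 0.27 against HFD (adjusted p = 2.35e-04), and by 1.08 ± 0.27 against 1B (adjusted p = 0.017). In 1B against chow it was 0.79 ± 0.29 with groups that did not overlap, and it missed the threshold (adjusted p = 0.185). The brightest probe gave 0.39 ± 0.15 in HFD+1B against chow (adjusted p = 0.0827), which passed without chow mouse 1 (0.51; adjusted p = 0.0274). It rose against HFD by 0.75 ± 0.15 (adjusted p = 0.00218), and with Cy5 alone that call was lost (0.27; adjusted p = 0.641).

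These Junb probes overlap by 22 bases, the end of the dimmer and the beginning of the brightest:
Junb shared stretch: ttcgtgtctaaagtctatttta
The brightest probe then runs into an alternating repeat:
Junb repeat in the brightest probe: tgtgtgtgtgtgt
The longest such run was 13 bases in the brightest probe and 4 in the dimmer one. Among 34653 tested probes with a sequence, 22 (0.0635%) held an alternating run of G and T of 10 or more bases. Such a run was in 0 of the 5 probes whose pattern over the mice was most like that of the brightest Junb probe. The mean Cy5 signal over background was 4109 units for the brightest and 1077 for the dimmer probe. Before normalization the mean signal of the dimmer probe was 517 units in chow and 2328.5 in HFD+1B mice, and that of the brightest 4901 and 5038. The part of the repeat in the disagreement was not tested.

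**Figure D4:**
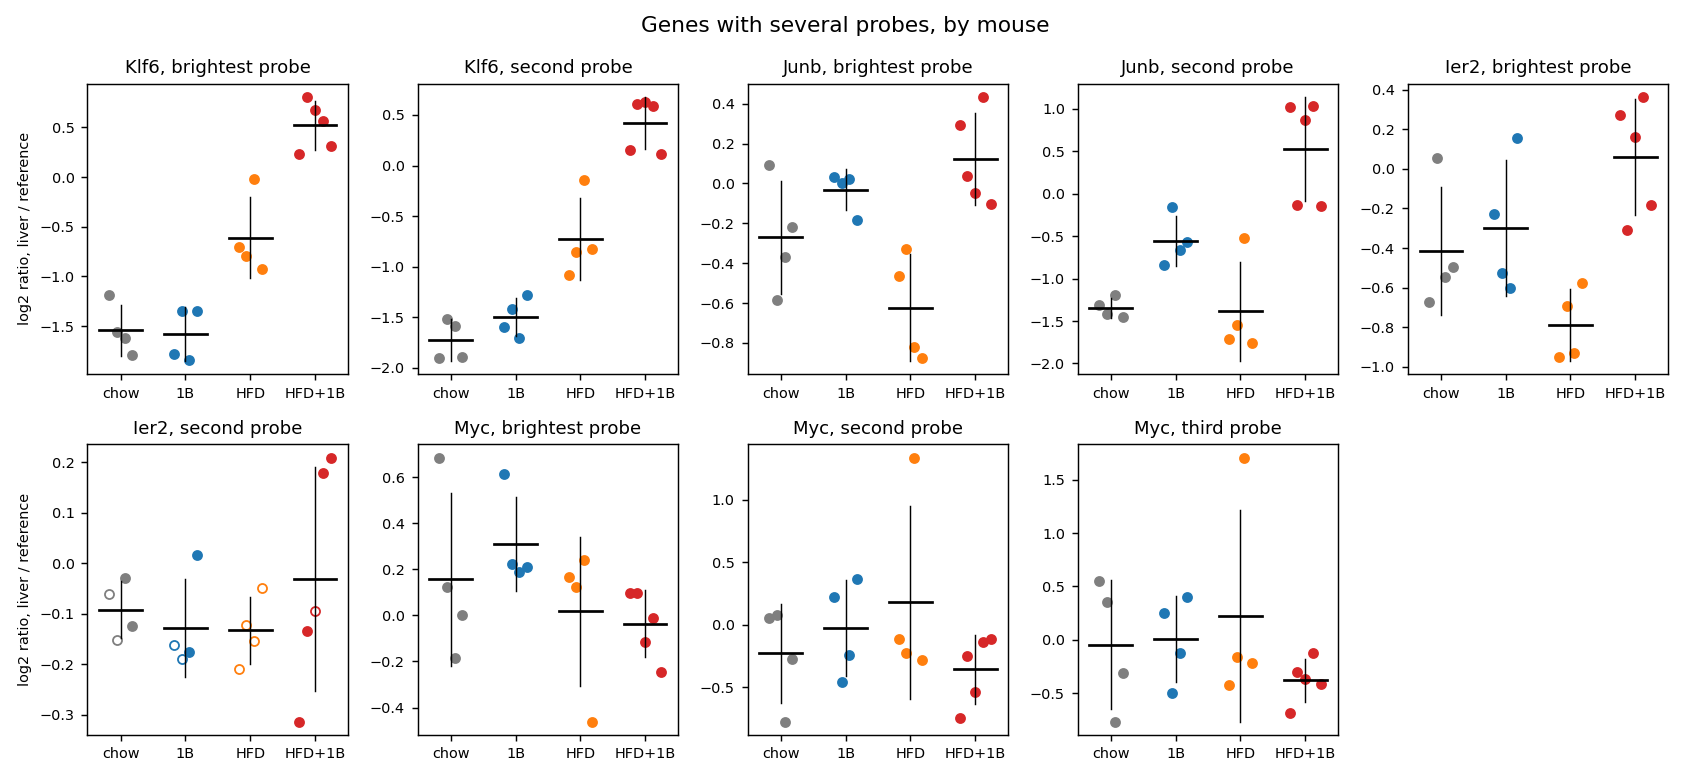
Log2 ratio of liver over reference (y axis) by mouse and group (x axis) for the 4 genes with several probes, with points, open points, means, and SDs as in the plot of all 9 genes. In both Klf6 probes HFD+1B mice lie above HFD mice and these above both chow-fed groups, the Junb probes differ in the gap between chow and HFD+1B mice, and HFD mouse 3 is the high point in both dimmer Myc probes (1.34 and 1.71).

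Ier2, an early gene that encodes a nuclear protein, ranged from -0.67 to 0.06 in chow mice and from -0.60 to 0.16 in 1B mice. HFD mice ranged from -0.95 to -0.58 and HFD+1B mice from -0.31 to 0.36. It rose in HFD+1B against HFD by 0.85 ± 0.18 (SE; adjusted p = 0.00343), with no overlap between these groups. Against chow the difference was 0.48 ± 0.18 (adjusted p = 0.0847), and it passed with median centring (0.54; adjusted p = 0.0276) and on leaving out chow mouse 2 (0.63, adjusted p = 0.0245) or HFD+1B mouse 2 (0.57, adjusted p = 0.044). The interaction was 0.73 ± 0.26 (adjusted p = 0.118), called with slide as a block (0.91; adjusted p = 0.0279) and with median centring (1.02; adjusted p = 0.0144). The dim second Ier2 probe, annotated by a cDNA clone, was well above background in 8 of 17 mice and in 0 of 4 HFD mice, and its group differences were -0.04 to 0.10, none called.

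Dusp1 varied widely within groups. It was -0.65, 0.51, -0.27, and 0.10 in chow, -0.77, -0.52, 0.27, and 1.16 in 1B, and -0.18, -0.69, -0.87, and -0.33 in HFD mice. In HFD+1B mice it was 0.10, 0.20, 0.32, 0.59, and 0.70, above all HFD mice. The log2 difference of HFD+1B and HFD, 0.90 ± 0.31, lay at the threshold (adjusted p = 0.0505). It passed with slide as a block (0.92; adjusted p = 0.0345) or median centring (1.07; adjusted p = 0.00786). It also passed in 6 of 17 fits that left out 1 mouse (adjusted p 0.0141 to 0.141 over the 17). Of these 6, only the fit without HFD mouse 1 (1.01, adjusted p = 0.0477) left out a mouse of the groups compared. The others left out a chow or 1B mouse, so the difference stayed the same and only its SE and adjusted p changed. In 1B against chow the difference was 0.11 with a wide interval of -0.57 to 0.80.

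Junb by both probes, Ier2 by its brightest, and Dusp1 had their lowest group mean in HFD mice. Probes of ribosomal RNA (3 genes) were also low in these mice. Their mean log2 ratio ran from -3.68 to -2.07 in HFD mice but from 0.28 to 0.71 in chow mice. The 1B mice lay between -1.18 and 0.10 and the HFD+1B mice between -0.92 and 1.03. Cholangiocyte markers (5 genes) had mean levels relative to chow between -0.66 and -0.15 in HFD mice and between 0.05 and 0.42 in HFD+1B mice. Of these 5, 3 were called higher in HFD+1B against HFD, beside 11% of all genes. The HFD mice lay apart from all others in ribosomal RNA, whereas in cholangiocyte markers they overlapped the 1B mice (-0.16 to 0.16). The part of both measures in the differences against HFD and in the interaction was not tested. The log2 difference between HFD+1B and chow does not use the values of the HFD mice. Its SE and adjusted p do, because all groups were fitted together with a shared estimate of spread.

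Myc stood apart from the other 8 genes. Its brightest probe ranged from -0.19 to 0.68 in chow mice and from 0.19 to 0.61 in 1B mice. The HFD mice ranged from -0.46 to 0.24 and the HFD+1B mice from -0.25 to 0.10. None of its 3 probes was called in any of the 6 comparisons, and neither was the probe of Dusp1. In HFD+1B against chow the 95% interval of the brightest probe was -0.54 to 0.16. HFD+1B and 1B mice did not overlap (-0.34 ± 0.17; adjusted p = 0.237), as was so for 5.8% of all genes in this direction. The dimmer Myc probes were at 1.34 and 1.71 in HFD mouse 3 and at or below -0.12 in the other 3 HFD mice.

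Likeness of pattern was described by Pearson's r over the 17 mice with the 15363 or 15364 genes measured in every mouse, without a test, and the 4 groups themselves shape these values. Klf6 was most like Chmp2b (r = 0.97), Krt8, a keratin of epithelial cells (r = 0.96), and Adamts1, a secreted protease (r = 0.94), followed by Pmepa1 and Tnfrsf12a. Jun was most like Rasip1 (r = 0.96), then Sowahc, Camk2n2, Adamts1, and Rab30 (r = 0.94 to 0.93). Both Fos and Ier3 had Cd14, the endotoxin co-receptor, as the first gene (r = 0.94 and 0.94) and Dusp14 among the 5. The others were Hist2h3c1, Hist1h3d, and Sntb2 for Fos and Dos, Zyx, and Chpf for Ier3. Fos and Ier3 themselves were well above background in only 7 and 9 of the 17 mice, so many of their values lay near background. Egr1 was most like Rrp1b (r = 0.94), then G3bp2, Arrdc4, Thbd, and Tiparp (r = 0.93 to 0.92). The values for Ier2 were lower, with Kctd15 first (r = 0.87), then Orai1, Gnl2, LOC102637317, and Atp6v1g1. Those for Dusp1 were lower still, with Tex13a first (r = 0.82), then Pptc7, Slc25a28, Cox11, and Timm10. The brightest Junb probe was most like 2410004P03Rik (r = 0.98), Krtap4-6, a hair keratin-associated gene (r = 0.95), and Ndor1, with Gigyf1 as the fifth and a probe whose symbol the table gives as a date as the fourth. The brightest Myc probe was most like Tgm6 (r = 0.86) and Fam162b, then Scn10a, a sodium channel of sensory neurons, Drd2, a dopamine receptor, and Zfp42.

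Related genes from 9 lists were followed in the same comparisons. In HFD+1B against chow, 8.9% of all genes were called higher and 7.42% lower. Of 12 other AP-1 subunits and partners, 5 rose and 1 fell in HFD+1B against chow, with a median difference of 0.28 beside 0.00060 over all genes. Maff, a small Maf factor, rose by 1.65 ± 0.19 (adjusted p = 1.76e-05), and Atf3, a stress-induced factor, rose by 1.48 ± 0.21 (adjusted p = 1.16e-04). Jund, usually the constitutive Jun protein, averaged 0.62 in HFD+1B mice against -0.73 in HFD, -0.72 in 1B, and -0.84 in chow mice, with an interaction of 1.23 ± 0.27 (adjusted p = 0.0179).

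Of 21 other early transcription factors tested, 8 rose and 0 fell in HFD+1B against chow (median 0.29), among them Arid5a (1.37), Nfil3 (1.37), and Cebpd (1.32). Cebpb, a factor of the acute phase and of liver regeneration, had an interaction of 2.11 ± 0.31 (adjusted p = 0.00244). It rose by 0.86 ± 0.21 in HFD+1B against chow, and it averaged 0.55 in HFD+1B mice against -0.75 in HFD, -1.12 in 1B, and -0.31 in chow mice. In the list of RNA decay and antiproliferative early genes, 13 of 20 rose and 1 fell (median 0.73). Cdkn1a, the cell cycle inhibitor p21, rose by 4.03 ± 0.39 (adjusted p = 2.92e-06), and it averaged 0.62 in HFD+1B mice against -1.85 in HFD, -2.18 in 1B, and -3.41 in chow mice. Btg2 rose by 2.62 ± 0.38 and the DNA damage gene Gadd45g by 2.56 ± 0.37. In this list 7 of 20 genes had a positive interaction, with the largest for Btg2 (2.43), Zfp36, which destabilizes messenger RNAs (2.14), and Plk3 (2.02), whereas 2.7% of all genes had a positive one. Zfp36 and Plk3 had lower means in 1B mice (-1.47 and -1.13) than in chow mice (-0.57 and -0.30).

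The feedback inhibitors of MAP kinase signaling rose in 4 of 15 genes, with Dusp6 (1.53 ± 0.23), Dusp4 (0.77 ± 0.17), and Spred2 (0.64 ± 0.15). Of 21 upstream regulators, 2 rose and 1 fell, a share near that of all genes (8.9% rose and 7.42% fell). Stat3, the transcription factor of the interleukin-6 response, rose by 1.28 ± 0.15 (adjusted p = 1.22e-05) and Mapk3 by 0.49 ± 0.16. Egfr, the epidermal growth factor receptor, fell by 1.61 on the log2 scale, and its mean was as low in HFD (-1.27) as in HFD+1B mice (-1.23).

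Targets of serum response factor (SRF) rose in 8 of 14 genes and none fell (median 0.76). The actin genes Actg1 and Acta2 rose by 2.37 ± 0.26 and 1.15 ± 0.16. Acta2 is also a marker of activated stellate cells. Among 15 other KLF family genes, 2 rose (Klf10 by 1.74 and Klf4 by 1.48) and 3 fell, Klf12 with the largest drop (-0.93). Klf10 rose in 1B against chow too, by 2.29 ± 0.33 (adjusted p = 4.92e-04), and averaged 0.60 in 1B and 0.04 in HFD+1B mice against -1.27 in HFD and -1.69 in chow mice. Klf13, Klf3, and Klf11 had interactions of 1.81, 1.28, and 1.19, and Klf13 fell in 1B against chow (mean -1.52 against 0.09, adjusted p = 1.38e-04). Klf11 was lower in HFD against chow (-0.97; adjusted p = 0.00494) and was not called in HFD+1B against chow (0.11).

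Of 12 partners and antagonists of Myc, 1 rose (Max, by 0.49 ± 0.10), a share near that of all genes (8.9%). Of 26 known Myc targets in ribosome and nucleotide synthesis, 1 rose and 7 fell (median -0.14), while 7.42% of all genes fell. Ldha, lactate dehydrogenase, rose by 1.23 ± 0.20, and the nucleolar genes Npm1 and Wdr12 were lower (-0.53 and -0.46). Nop2, Srm, and Bop1 had negative interactions (-0.97, -0.90, and -0.50).

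**Figure D5:**
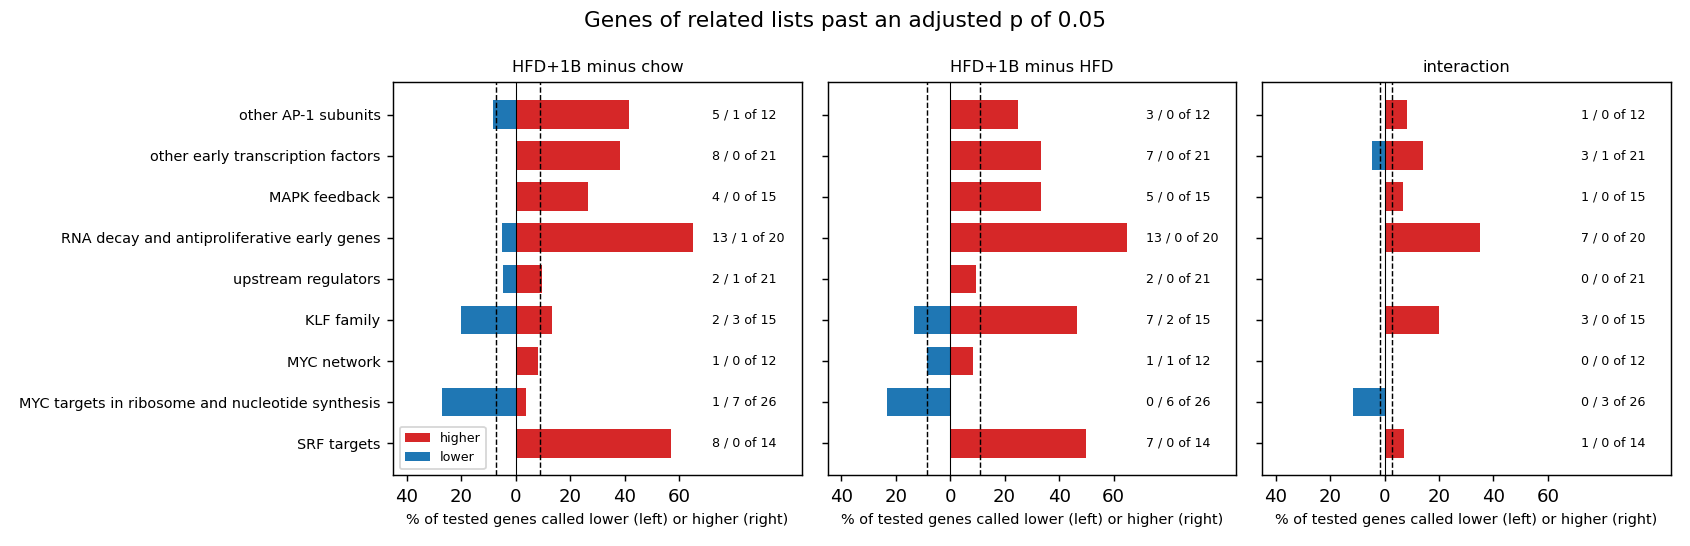
Share of tested genes called higher (right) or lower (left) at an adjusted p of 0.05 (x axis, percent) in 9 related lists (y axis), in 3 panels: the interaction, and HFD+1B minus either chow or HFD. Dashed lines are the shares among all 19367 genes, and numbers give genes higher and lower of those tested. The RNA decay and antiproliferative list has 13 of 20 genes higher in HFD+1B minus chow and also in HFD+1B minus HFD.

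Single markers of other cell types moved too. Of 8 sinusoidal endothelial markers, 2 were higher and 3 lower in HFD+1B against chow, with Lyve1 higher by 3.19 ± 0.15 and Kdr at -1.05. Over all genes, 8.9% were called higher in this comparison and 7.42% lower. Of 4 erythroid markers, the globin genes Hba-a1 and Hbb-bt were called higher against chow (0.78 and 0.82). Against 1B, 2 of 4 were, beside 6.27% of all genes. The mean level of the erythroid list relative to chow was -0.01 to 0.68 in HFD+1B mice and -0.15 to 0.15 in chow mice. Of 11 neutrophil markers, 3 were called higher (S100a8 by 1.46, S100a9 by 1.04, and Mmp8 by 0.45) and 1 lower (Csf3r, -1.04). S100a8 was well above background in 0 of 4 chow mice, so its difference is measured against a group at background. The mean level of the neutrophil list relative to chow was -0.0046 to 0.36 in HFD+1B mice and -0.15 to 0.22 in chow mice. The mean of this list was above 0 (0.12) and the median difference below it (-0.04). Of 5 cholangiocyte, 4 T-cell, and 5 B-cell markers none was called in this comparison. The part of these cell types in the members' results was not tested.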

How the data were processed

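Total RNA of 17 livers was hybridized against a common reference on 5 slides, each with 3 or 4 of the groups, in a single dye orientation. The deposited scanner files hold spot intensity values from Feature Extraction 11.5.1.1, and the series table holds log2 ratios that the authors took from the processed signals (largest difference 2.7e-06). Here the median intensities were background-corrected (normexp, offset 50) and loess-normalized within arrays, with outlier spots omitted and spots of a probe averaged. Probes well above background in Cy5 on at least 4 of 17 arrays and measured in every group were kept (34664 of 41174), with 3424 values missing. Group means over all 17 arrays were fitted in limma 3.58.1 (R 4.3.3), with Benjamini-Hochberg adjustment over these probes. A gene was represented by its brightest tested probe.

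Named were all member probes, up to 3 called genes per related list with the largest differences in HFD+1B minus chow or the interaction, and the 5 genes most like each member. Other genes named were chosen after their values were seen. In the related lists, 1 gene that this rule names is not reported here. Members and lists were chosen with earlier results of these data known. Gene symbols came from the series table (35340 probes) or RefSeq (16 probes), and the second Ier2 probe was matched by symbol only. Scripts were tested on simulated data. The number of arrays limits the precision. 30 alternatives were tried, among them other background, normalization and filter settings, slide and replicate blocks, Cy5 alone, and leaving out each mouse.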

Additional observations from a re-analysis of the deposited data

Results flagged for a closer look

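In 7 of the 56 sets of probe and group, the highest or lowest mouse stood apart by its gap to the nearest other mouse, given as a share of the group's range. Chance gives about 2.8 of 56, and each set was judged on its own. The clearest was Ier3 in HFD+1B mouse 4 (0.947, at 1.73 against 0.14 to 0.23 in the other mice). HFD mouse 3 was the highest of its group for both dimmer Myc probes (0.899 and 0.878). For the brightest Myc probe, 1B mouse 1 was highest (0.92) and HFD mouse 4 lowest (0.834). Mouse 4 of 1B was lowest for the brightest Junb probe (0.873) and highest for the second Ier2 probe (0.861).

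The ethanol effect differed between diets by the limma interaction for both Klf6 probes (1.17 and 0.92). Among related genes it was positive for Jund (1.23), Cebpb (2.11), Id3 (1.06), Dusp8 (1.19), Btg2 (2.43), Zfp36 (2.14), Plk3 (2.02), Klf13 (1.81), Klf3 (1.28), Klf11 (1.19), and Myl9 (0.69). It was negative for Id2 (-1.42), Nop2 (-0.97), Srm (-0.90), and Bop1 (-0.50). Of these, Klf13 fell with ethanol in chow-fed mice and did not pass in HFD+1B against HFD (0.19). Among these named genes with a positive interaction, all but Jund had a lower mean in 1B than in chow mice. The unnamed list genes with a positive interaction were not examined for this. For Cebpb, Id3, Zfp36, and Plk3 the means were -1.12, -0.63, -1.47, and -1.13 in 1B and -0.31, 0.22, -0.57, and -0.30 in chow mice. Dusp8 and Klf11 had their lowest means in HFD mice (-1.23 and -1.22). Their HFD+1B means (-0.21 and -0.13) were near those of chow mice (-0.23 and -0.25).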

How the results depend on the processing

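Of 1599 values of the 9 genes in 6 comparisons under the alternatives, 1521 kept direction and call, 24 lost the call, 31 gained it, and 23 changed sign, 0 of them where either value was called. Part of this was fixed in advance. Leaving out a mouse cannot change a log2 difference that does not involve its group. The 2-fold rule, Tukey's test, and the filters on signal keep the main differences, and only calls could change. By the second brightest probe, genes with 1 probe kept both value and call. The genes called changed by more than 1.5 times in these cases, and the cause was not tested. HFD minus chow (2) gave 4 with median centring (the gained Junb and Ier2 lower), 0 with Cy5 alone, and 0 with the 2-fold rule at an unadjusted p of 0.05. HFD+1B minus chow (5) gave 3 with probes above background on all 17 arrays, where only 7 members were tested, and 3 with the 2-fold rule. HFD+1B minus HFD (7) gave 2 with the 2-fold rule. HFD+1B minus 1B (4) gave 2 with all 17 arrays above background and 2 with the 2-fold rule. The interaction (1) gave 3 with median centring, 0 with Cy5 alone, and 2 with slide as a block. Leaving out each mouse gave 1, 2, 5 to 6, 6 to 8, 4 to 5, and 1 called genes in the 6 comparisons.

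The deviations from group means of same-numbered mice correlated with a median r of 0.18 (-0.13 to 0.48, 16 of 24 pairs over 0.1). For mice of the same slide the median was 0.20 (16 of 21), and for the other pairs -0.05 (16 of 77). Not every same-numbered pair passed 0.1, so the numbers were not taken as pairs. The main fit had no block for slide or number, although the median r was higher for mice that shared either. With a replicate block, 1, 2, 6, 7, 5, and 1 genes were called in the 6 comparisons, and the calls gained were Egr1 in HFD+1B minus 1B (1.05; adjusted p = 0.0311) and Junb in HFD+1B minus chow (0.45; adjusted p = 0.0453).

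Signs changed only among uncalled values. In 1B minus chow, Klf6 became 0.025 in the authors' table, 0.16 with Cy5 alone, 0.093 as the mean over probes, 0.0091 with slide as a block, and 0.23 by the second brightest probe, and it was -0.12 to 0.079 on leaving out 1 mouse. Dusp1 became -0.046 with slide as a block and was -0.26 to 0.38 on leaving out 1 mouse. Ier2 became -0.036 by the second brightest probe and was -0.036 to 0.27 on leaving out 1 mouse. Junb and Myc became -0.15 and -0.27 with Cy5 alone. Myc in HFD minus chow became 0.071 with Cy5 alone, 0.18 as the mean over probes, and 0.41 by the second brightest probe, and it was -0.25 to 0.038 on leaving out 1 mouse. Myc in HFD+1B minus HFD became 0.23 with median centring and was -0.21 to 0.021 on leaving out 1 mouse, and its interaction became 0.15 with median centring. The second brightest probe was added after the data were seen. Tukey's test was not run for the interaction. Low signal over background limits Fos, Ier3, and the second Ier2 probe.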
